A study of Sus scrofa with 9 samples.

Results

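Glycolysis is the chain of cytosolic enzymes that splits glucose into pyruvate, and 10 genes of this chain and of its entry and exit points were examined in sorted pig blood T cells: SLC2A1, HK1, ALDOA, ALDOC, TPI1, GAPDH, PGK1, ENO1, LDHA and LDHB. A probe was taken as a member when the accession it was designed on, without its version, mapped to one of these pig genes in RefSeq's gene table for the assembly Sscrofa11.1. The rule found 29 of the 43603 non-control probes of the array, and they stood for 7 of the 10 genes, among 3052 genes named on the array. No probe mapped to ALDOA, ENO1 or SLC2A1, so these were not analysed here. Of the 29 probes, 26 could be tested, among 16024 testable probes in all. A probe counted as testable when at least 1 fraction had it called well above background by the scanner software on each of its 3 arrays, and 25 of the 26 were above background on all 9 arrays.

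Mononuclear cells from the blood of sows were sorted by surface protein into CD3+CD4+CD8+ cells (double positive, DP), CD3+CD4+ cells (CD4) and CD3+CD8+ cells (CD8), with 3 arrays each. CD3 belongs to the T cell receptor complex, CD4 marks mainly helper cells and CD8 mainly cytotoxic cells. In pigs, circulating DP cells are common and are described as helper cells with an activated or memory phenotype. No treatment was named, and the labels call the arrays of a fraction biological replicates. The sources used here give no number or age of the sows, no antibodies, sort gates or purity, and do not say whether the CD4 and CD8 gates excluded the other marker. The p-values measure the spread between these arrays. In cell fractions, fewer cells of a type and less RNA per cell cannot be told apart.

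Resting T cells are known to draw most of their energy from mitochondria, while activated effector cells raise glucose uptake and glycolysis and release lactate. Lactate dehydrogenase joins pyruvate and lactate in a tetramer of LDHA and LDHB subunits, and a tetramer rich in LDHA is known to favour lactate, one rich in LDHB pyruvate. Levels below are log2 signal of a probe minus the 75th percentile of its array. Probes differ in how well they hybridise, so each level is compared only with the same probe on other arrays. A gene is described first by its leading probe, the tested probe with the highest mean over the 9 arrays.

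The arrays differed in brightness. The 75th percentile of signal was 19.0 to 42.5 intensity units on DP arrays, 15.2 to 84.1 on CD4 arrays and 18.4 to 29.7 on CD8 arrays. The share of probes above background was 38.1% to 45.9%, 32.6% to 53.7% and 33.9% to 45.5% in the same order of fractions, and CD4 array 2 was the dimmest. Slide 1 held DP array 1 alone, while slides 2 and 3 each held arrays of all 3 fractions. The sorted markers matched the labels. The leading CD4 probe lay between 1.09 and 2.78 on DP arrays, between 1.47 and 2.35 on CD4 arrays and between -3.27 and -0.79 on CD8 arrays. The leading CD8A probe lay between 2.84 and 4.32 on DP arrays, between -0.40 and 0.94 on CD4 arrays and between 4.72 and 5.81 on CD8 arrays. The summed signal of the 5 sorting markers measured, CD3D, CD3E and CD3G included, was 6.49 to 7.39 on DP arrays, 6.38 to 7.01 on CD4 arrays and 6.90 to 7.67 on CD8 arrays, on the log2 scale.

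Markers of other blood cells were also present. Of 5 B cell markers only CD79A was testable, at -1.50 to 0.86 on DP arrays, -0.10 to 0.64 on CD4 arrays and 2.39 to 3.56 on CD8 arrays. Of 4 natural killer cell markers, FCER1G and TYROBP were testable, with a summed level of -1.22 to 2.21 on DP, -0.14 to 0.86 on CD4 and 2.03 to 2.36 on CD8 arrays, and NCR1 was above background on no array. Of 9 monocyte and granulocyte markers, LYZ and S100A12 were testable, with a summed level of -1.61 to 1.46, -0.70 to 0.44 and -0.94 to 2.52 in DP, CD4 and CD8, and S100A8 and S100A9 were above background on no array. Of 5 platelet markers, 3 were testable, at 1.23 to 1.96, 1.16 to 1.84 and 0.12 to 2.02 in DP, CD4 and CD8. CD79A and the summed natural killer cell level were higher on every CD8 array than on every CD4 array, while TYROBP alone overlapped between these fractions. CD79A was also higher on every CD8 array than on every DP array. Its difference was -3.20 ± 0.60 (SE) for DP minus CD8, with an adjusted p of 0.0452 by limma, and 0.0854 with a slide block. For CD4 minus CD8 it was -2.98 ± 0.60, with an adjusted p of 0.0561 by limma. The part of these cells in the values below was not tested.

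No glycolysis probe passed the test in any of the 3 comparisons. The test was limma's moderated test over all 9 arrays, two-sided, with Benjamini-Hochberg adjustment over the 16024 probes and a threshold of 0.05. Between DP and CD4, 0 of 26 member probes were called, against 0.293% of all tested probes, and 4 of 26 had an unadjusted p under 0.05, against 4.84% of all. Between DP and CD8, 0 of 26 were called, against 0.312% of all, and 0 of 26 had an unadjusted p under 0.05, against 6.52%. Between CD4 and CD8, 0 of 26 were called, against 0.437% of all, and 4 of 26 had an unadjusted p under 0.05, against 4.54%. All of the probes with an unadjusted p under 0.05 belonged to LDHB, whose probes read 1 transcript and are not independent of each other. The median difference of the 6 leading probes was 0.22 for DP minus CD4, 0.16 for DP minus CD8 and -0.06 for CD4 minus CD8, against -0.02, -0.03 and -0.01 over all tested probes. The arrays of the 2 fractions did not overlap for 7 of 26 member probes between DP and CD4 (1 higher and 6 lower in DP), against 10.1% of all tested probes, for 0 of 26 between DP and CD8, against 9.79%, and for 2 of 26 between CD4 and CD8, against 8.01%. The smallest adjusted p of any member probe over the main setting and 19 alternatives was 0.364 for DP minus CD4, 0.565 for DP minus CD8 and 0.350 for CD4 minus CD8.

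**Figure D1:**
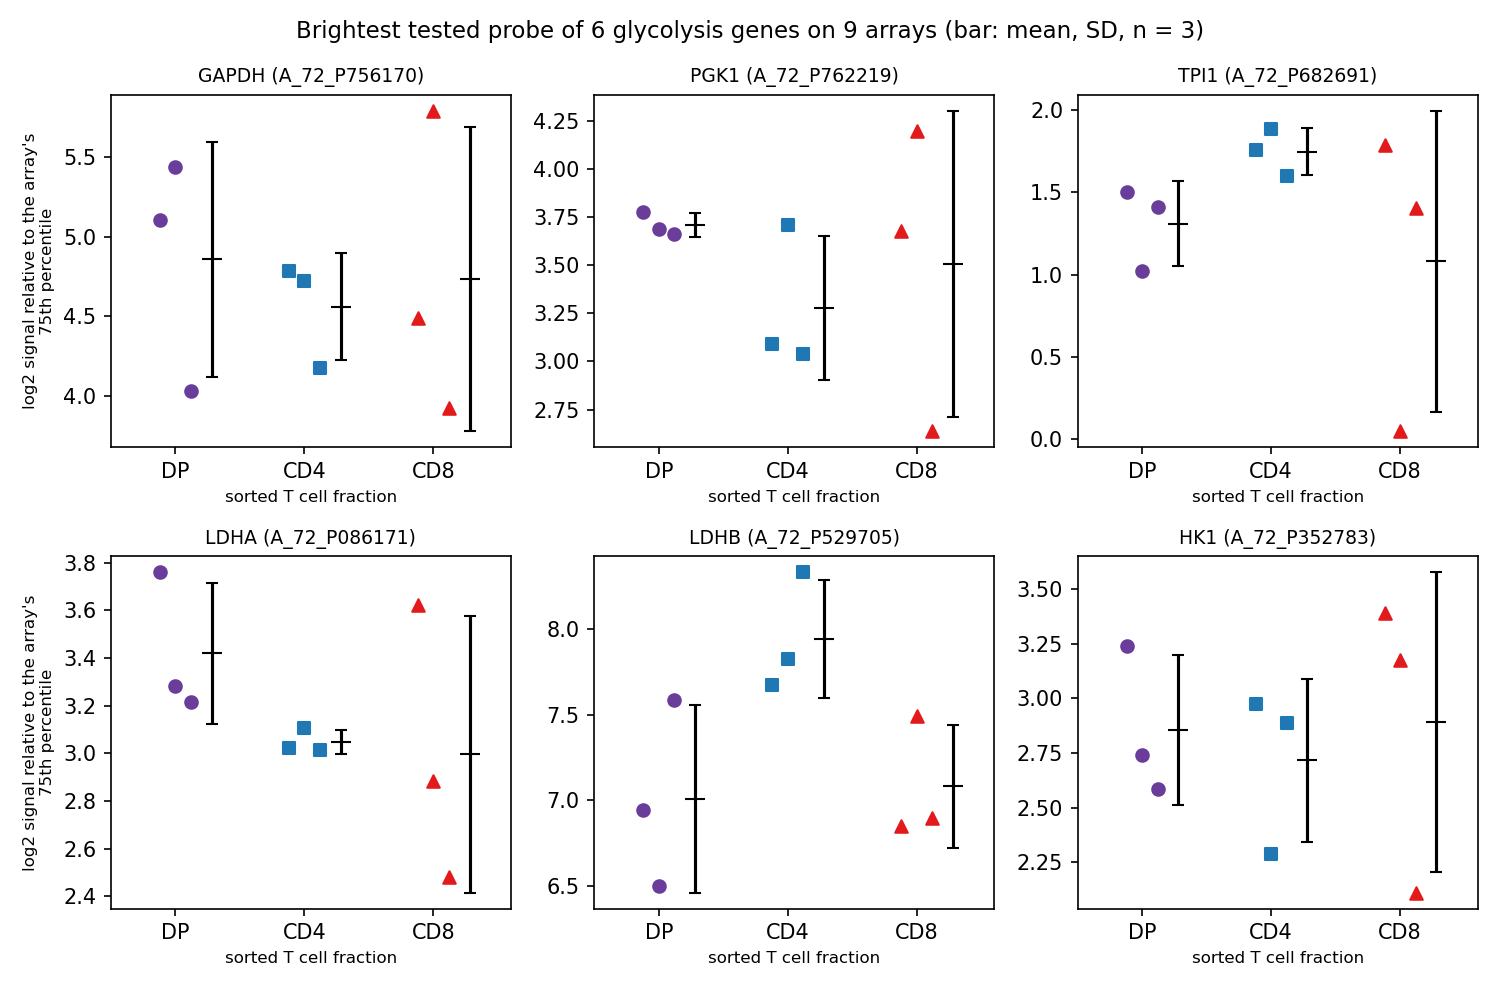
Log2 signal relative to the array's 75th percentile for the leading probe of 6 glycolysis genes, with 1 point per array in the DP, CD4 and CD8 fractions and a bar for the mean and SD (n = 3); each panel has its own scale. LDHB is the gene whose CD4 arrays all lie above the arrays of both other fractions, and GAPDH, PGK1 and HK1 overlap between fractions.

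LDHB encodes the heart-type subunit of lactate dehydrogenase. Its 12 probes were all above background on all 9 arrays. Its leading probe read 6.94, 6.50 and 7.58 on DP arrays, 7.67, 7.82 and 8.33 on CD4 arrays and 6.85, 7.49 and 6.90 on CD8 arrays. Every DP and every CD8 array lay below every CD4 array, and the DP and CD8 arrays overlapped. The difference was -0.93 ± 0.37 (SE, n = 3 each) for DP minus CD4, a 1.91-fold lower signal in DP, with a 95% interval of -1.73 to -0.14 and an adjusted p of 0.736 by limma. It was 0.86 ± 0.37 for CD4 minus CD8, a 1.82-fold higher signal in CD4, with a 95% interval of 0.07 to 1.65 and an adjusted p of 0.999 by limma. For DP minus CD8 it was -0.07 ± 0.37, with a 95% interval of -0.87 to 0.72. The intervals for single comparisons are not adjusted for the number of probes.

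The other LDHB probes had the same direction in both comparisons with CD4. All 12 probes were lower in DP than in CD4, with a median difference of -0.86 and a range of -1.28 to -0.64. All 12 were higher in CD4 than in CD8, with a median of 0.91 and a range of 0.48 to 1.25. The comparisons share the CD4 arrays, so high LDHB on those arrays gives both. Between DP and CD8, 6 probes were higher and 6 lower, with a median of 0.00 and a range of -0.41 to 0.48. Differences above 0 made up 47.7%, 47.7% and 48.8% of all tested probes in DP minus CD4, DP minus CD8 and CD4 minus CD8.

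Averaged over the 12 probes, LDHB stood at 4.54, 4.84 and 4.48 on DP arrays, 5.94, 4.92 and 5.66 on CD4 arrays and 4.17, 5.25 and 4.35 on CD8 arrays. The means were 4.62 ± 0.19 in DP, 5.50 ± 0.52 in CD4 and 4.59 ± 0.58 in CD8 (SD, n = 3 each). CD4 array 2 was the lowest of its fraction, just above the highest DP array and below CD8 array 2. Arrays of the 2 fractions did not overlap for 5 of the 12 probes between DP and CD4, all lower in DP, against 4.89% of all tested probes in that direction. They did not overlap for 2 of the 12 between CD4 and CD8, both higher in CD4, against 3.78% of all. The probe with the lowest adjusted p for DP minus CD4, A_72_P522171, read 2.74, 3.06 and 3.23 on DP arrays and 4.40, 3.56 and 4.30 on CD4 arrays, a difference of -1.08 ± 0.39 (SE) with an adjusted p of 0.615 by limma. The probe with the widest difference, A_72_P583731, read 1.38, 1.73 and 2.21 on DP arrays and 3.71, 2.15 and 3.30 on CD4 arrays, which overlap at CD4 array 2.

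**Figure D2:**
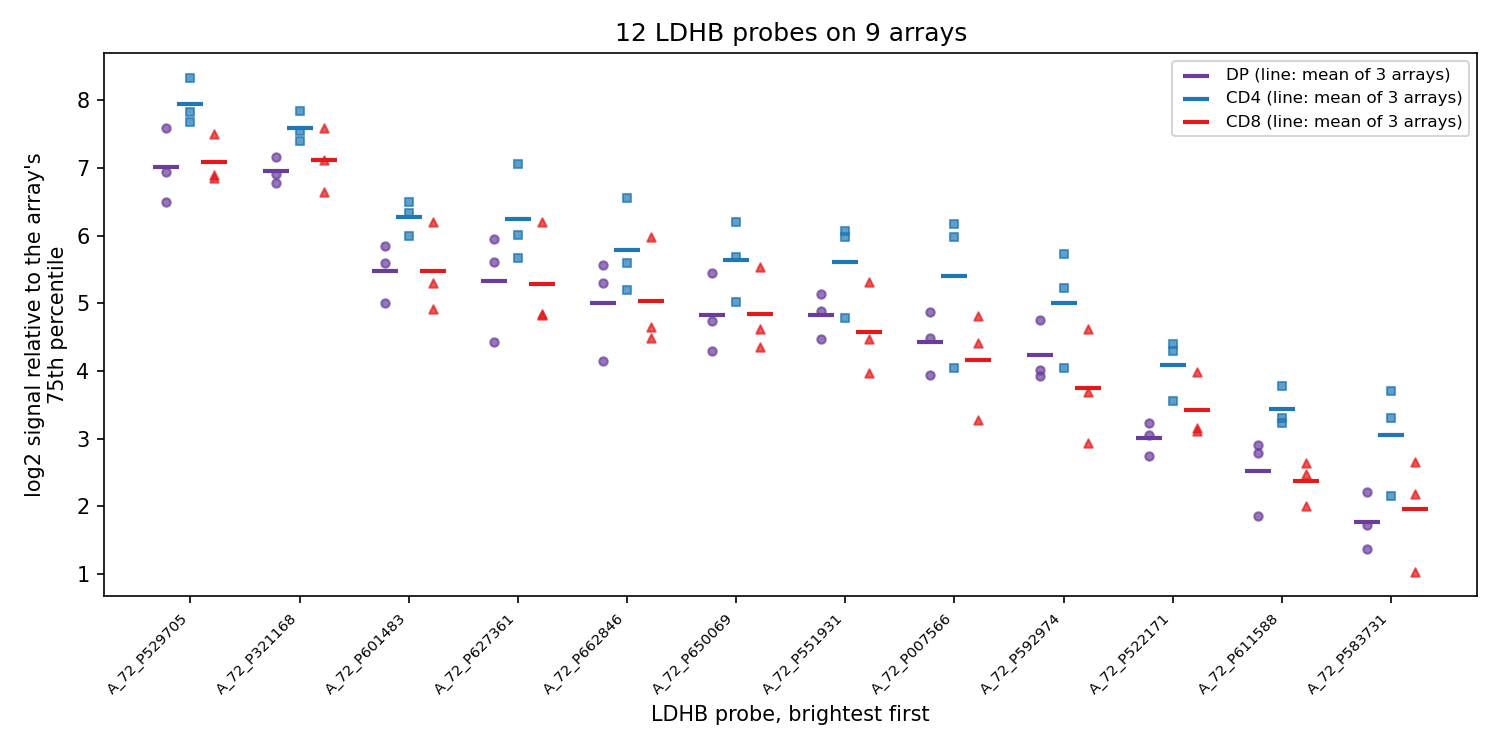
Log2 signal relative to the array's 75th percentile for each of the 12 LDHB probes, ordered from brightest to dimmest, with 1 point per array and a line for the mean of 3 arrays in the DP, CD4 and CD8 fractions. The CD4 line is the highest at all 12 probes, and for 5 probes all CD4 points lie above all DP points.

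The LDHB difference was not equal on both slides. Within slide 3 (1 DP, 2 CD4 and 1 CD8 array), all 12 probes were lower in DP than in CD4, with a median of -1.36, and all 12 were higher in CD4 than in CD8, with a median of 1.52. Within slide 2 (1 DP, 1 CD4 and 2 CD8 arrays), 6 of 12 were lower in DP than in CD4, with a median of 0.07, and 8 of 12 were higher in CD4 than in CD8, with a median of 0.17. The only CD4 array on slide 2 is the dimmest of the 9. The leading probe kept its sign on both slides, at -1.33 on slide 2 and -0.42 on slide 3 for DP minus CD4, and at 0.65 and 1.103 for CD4 minus CD8. The part of slide and of array brightness in these values was not tested further. The annotation lists 2 pig genes under the symbol LDHB, and the accession of the 12 probes belongs to 1 of them, so transcripts of the copies cannot be told apart if they share the probe sequences.

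**Figure D3:**
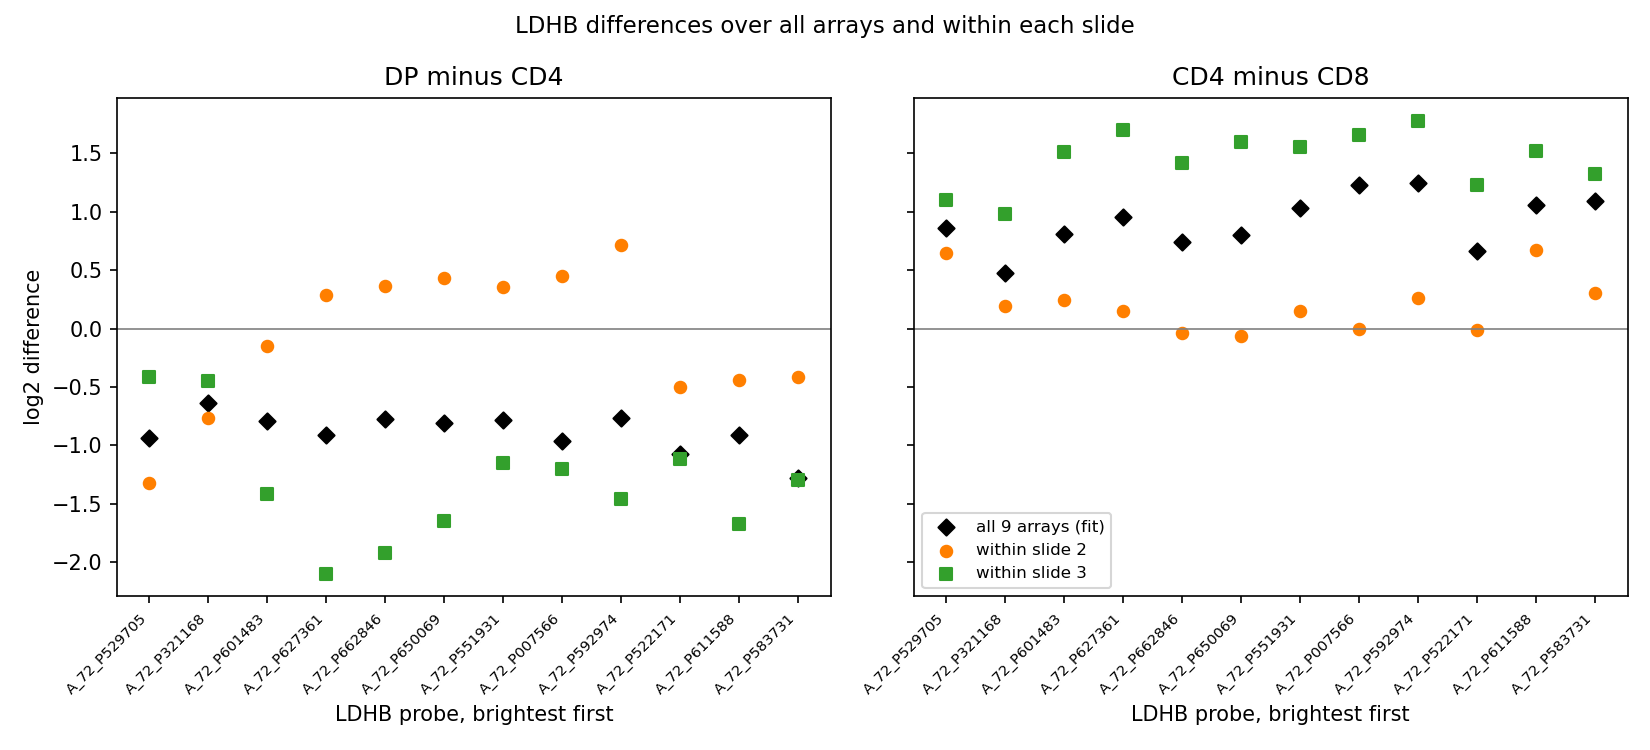
Log2 difference of each of the 12 LDHB probes for DP minus CD4 (left) and CD4 minus CD8 (right), from the fit over all 9 arrays and from the arrays of slide 2 or slide 3 alone. Slide 3 has all 12 probes on 1 side of 0 in both panels, while slide 2 is split 6 to 6 on the left and 8 to 4 on the right.

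LDHA encodes the muscle-type subunit of lactate dehydrogenase and was read by 1 probe. It stood at 3.76, 3.28 and 3.22 on DP arrays, 3.02, 3.11 and 3.01 on CD4 arrays and 3.62, 2.88 and 2.48 on CD8 arrays. Every DP array lay above every CD4 array, and the CD8 arrays overlapped with both fractions. The difference was 0.37 ± 0.38 (SE) for DP minus CD4, 0.42 ± 0.38 for DP minus CD8 and 0.05 ± 0.38 for CD4 minus CD8, and each 95% interval included 0. Over all 26 member probes, the LDHA probe was the only one with higher non-overlapping DP arrays against CD4, where 5.22% of all tested probes had that pattern.

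Within an array, the LDHA probe minus the leading LDHB probe gives a value in which the array's scale cancels, and only its change between fractions was read. It was -3.18, -3.22 and -4.37 on DP arrays, -4.65, -4.72 and -5.32 on CD4 arrays and -3.23, -4.61 and -4.42 on CD8 arrays. With this LDHB probe, all 3 CD4 arrays were below all DP and all CD8 arrays. The means were -3.59 ± 0.67 in DP, -4.89 ± 0.37 in CD4 and -4.09 ± 0.75 in CD8 (SD, n = 3 each). DP exceeded CD4 by 1.31 and CD8 by 0.50, and CD4 was below CD8, at a difference of -0.81. Exact two-sided permutation tests over arrays gave p = 0.1, p = 0.2 and p = 0.1 for these differences, and 3 arrays against 3 cannot go below 0.1, so none can pass 0.05 with or without adjustment for the 3 comparisons. The difference between DP and CD4 was 1.50 within slide 2 and 0.62 within slide 3. With the mean of the 12 LDHB probes in place of the leading one, the value was -0.78, -1.56 and -1.26 on DP arrays, -2.91, -1.81 and -2.64 on CD4 arrays and -0.55, -2.37 and -1.87 on CD8 arrays. All DP arrays then still lay above all CD4 arrays, but CD4 and CD8 arrays overlapped, as CD4 array 2 was above CD8 arrays 2 and 3. The differences were 1.26 for DP minus CD4 (exact permutation p = 0.1), 0.40 for DP minus CD8 (p = 0.5) and -0.86 for CD4 minus CD8 (p = 0.3). DP minus CD4 was then 0.26 within slide 2 and 1.52 within slide 3, so which slide held the larger difference depended on the LDHB probes used.

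**Figure D4:**
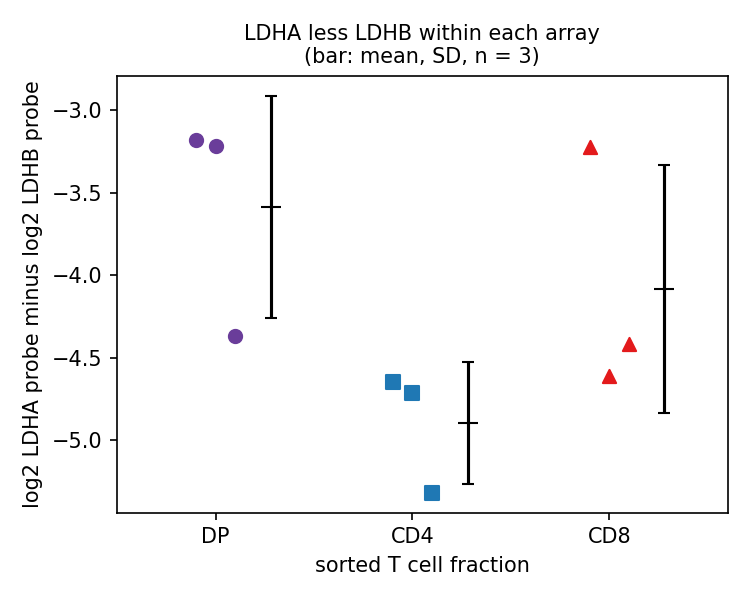
LDHA probe minus leading LDHB probe on the log2 scale within each array, for DP, CD4 and CD8, with a bar for the mean and SD (n = 3). The 3 CD4 points, from -5.32 to -4.65, lie below all 6 other points for this LDHB probe, which run from -4.61 to -3.18.

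HK1 encodes the hexokinase that phosphorylates glucose on entry and is found widely across tissues. Its leading probe read 3.24, 2.74 and 2.59 on DP arrays, 2.97, 2.29 and 2.89 on CD4 arrays and 3.39, 3.18 and 2.11 on CD8 arrays. The fractions overlapped throughout. The differences were 0.14 ± 0.43 (SE) for DP minus CD4, -0.04 ± 0.43 for DP minus CD8 and -0.18 ± 0.43 for CD4 minus CD8. The range of its 3 fraction means, 0.18, was smaller than that of most tested probes, whose median was 0.53. Its second probe differed by 0.28, 0.09 and -0.19 in the same comparisons.

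ALDOC encodes aldolase C, an isoform best known from brain, which splits fructose bisphosphate. Its only probe was above background on 2 DP, 1 CD4 and 2 CD8 arrays and was not tested. Its values ran from -3.63 to -0.65 over the 9 arrays. With no ALDOA probe, the balance of the aldolase isoforms was not analysed here.

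TPI1 encodes triosephosphate isomerase, which interconverts the products of aldolase. Its leading probe read 1.50, 1.02 and 1.41 on DP arrays, 1.76, 1.88 and 1.60 on CD4 arrays and 1.79, 0.05 and 1.40 on CD8 arrays. The DP arrays lay below the CD4 arrays, and CD8 array 2 was the lowest of all 9. The differences were -0.44 ± 0.47 (SE) for DP minus CD4, 0.23 ± 0.47 for DP minus CD8 and 0.67 ± 0.47 for CD4 minus CD8. Of its 4 tested probes, 2 were higher and 2 lower in DP than in CD4, so the probes disagree there. All 4 were higher in DP than in CD8, by 0.23 to 0.77, and all 4 were higher in CD4 than in CD8, by 0.59 to 0.81. Both of these comparisons use the CD8 arrays, on which array 2 was the lowest for all 4 probes. Without CD8 array 2 the leading probe's DP minus CD8 difference was -0.29. The other 3 probes stayed higher in DP than in CD8, and the median of the 4 was 0.24. All 4 then stayed higher in CD4 than in CD8, with a median of 0.31. The smallest adjusted p for TPI1 was 0.935 by limma. The remaining probe was above background on 2 DP, 1 CD4 and 0 CD8 arrays, so on all 3 arrays of no fraction, and was not tested.

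GAPDH encodes glyceraldehyde-3-phosphate dehydrogenase, the oxidising step of the pathway and a gene often used to scale expression data. Its leading probe read 5.11, 5.44 and 4.03 on DP arrays, 4.79, 4.72 and 4.17 on CD4 arrays and 4.49, 5.79 and 3.92 on CD8 arrays. Arrays of 1 fraction differed more than the fractions did. The highest array was 3.65-fold brighter than the lowest after scaling, and both were CD8 arrays. The pooled SD within fractions was 0.72, against a median of 0.62 over all tested probes, while the range of the fraction means was 0.30. The differences were 0.30 ± 0.50 (SE) for DP minus CD4, 0.12 ± 0.50 for DP minus CD8 and -0.18 ± 0.50 for CD4 minus CD8. The second GAPDH probe spread further, from 0.86 to 3.96, an 8.57-fold range with a pooled SD within fractions of 1.29. For DP minus CD4 the leading probe was 0.72 within slide 2 and -0.45 within slide 3.

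PGK1 encodes phosphoglycerate kinase, the first step of the pathway that makes ATP. Its leading probe read 3.78, 3.69 and 3.66 on DP arrays, 3.09, 3.71 and 3.04 on CD4 arrays and 3.68, 4.20 and 2.64 on CD8 arrays. The DP arrays were close together, and the CD8 arrays spanned all values of both other fractions. The differences were 0.43 ± 0.42 (SE) for DP minus CD4, 0.20 ± 0.42 for DP minus CD8 and -0.23 ± 0.42 for CD4 minus CD8. All 5 tested probes were higher in DP than in CD4, by 0.28 to 0.58, and all 5 were lower in CD4 than in CD8, by -0.60 to -0.23, in comparisons that share the CD4 arrays. In DP minus CD8, 2 probes were higher and 3 lower. Averaged over the 5 probes, PGK1 stood at 2.45 ± 0.04 in DP, 2.04 ± 0.27 in CD4 and 2.43 ± 0.67 in CD8 (SD, n = 3 each). The SD in DP was 0.06 for the leading probe but 0.29 to 0.35 for the other tested probes. The small SD of the average does not hold for each probe. The remaining probe, not above background on all arrays of any fraction, was not tested.

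**Figure D5:**
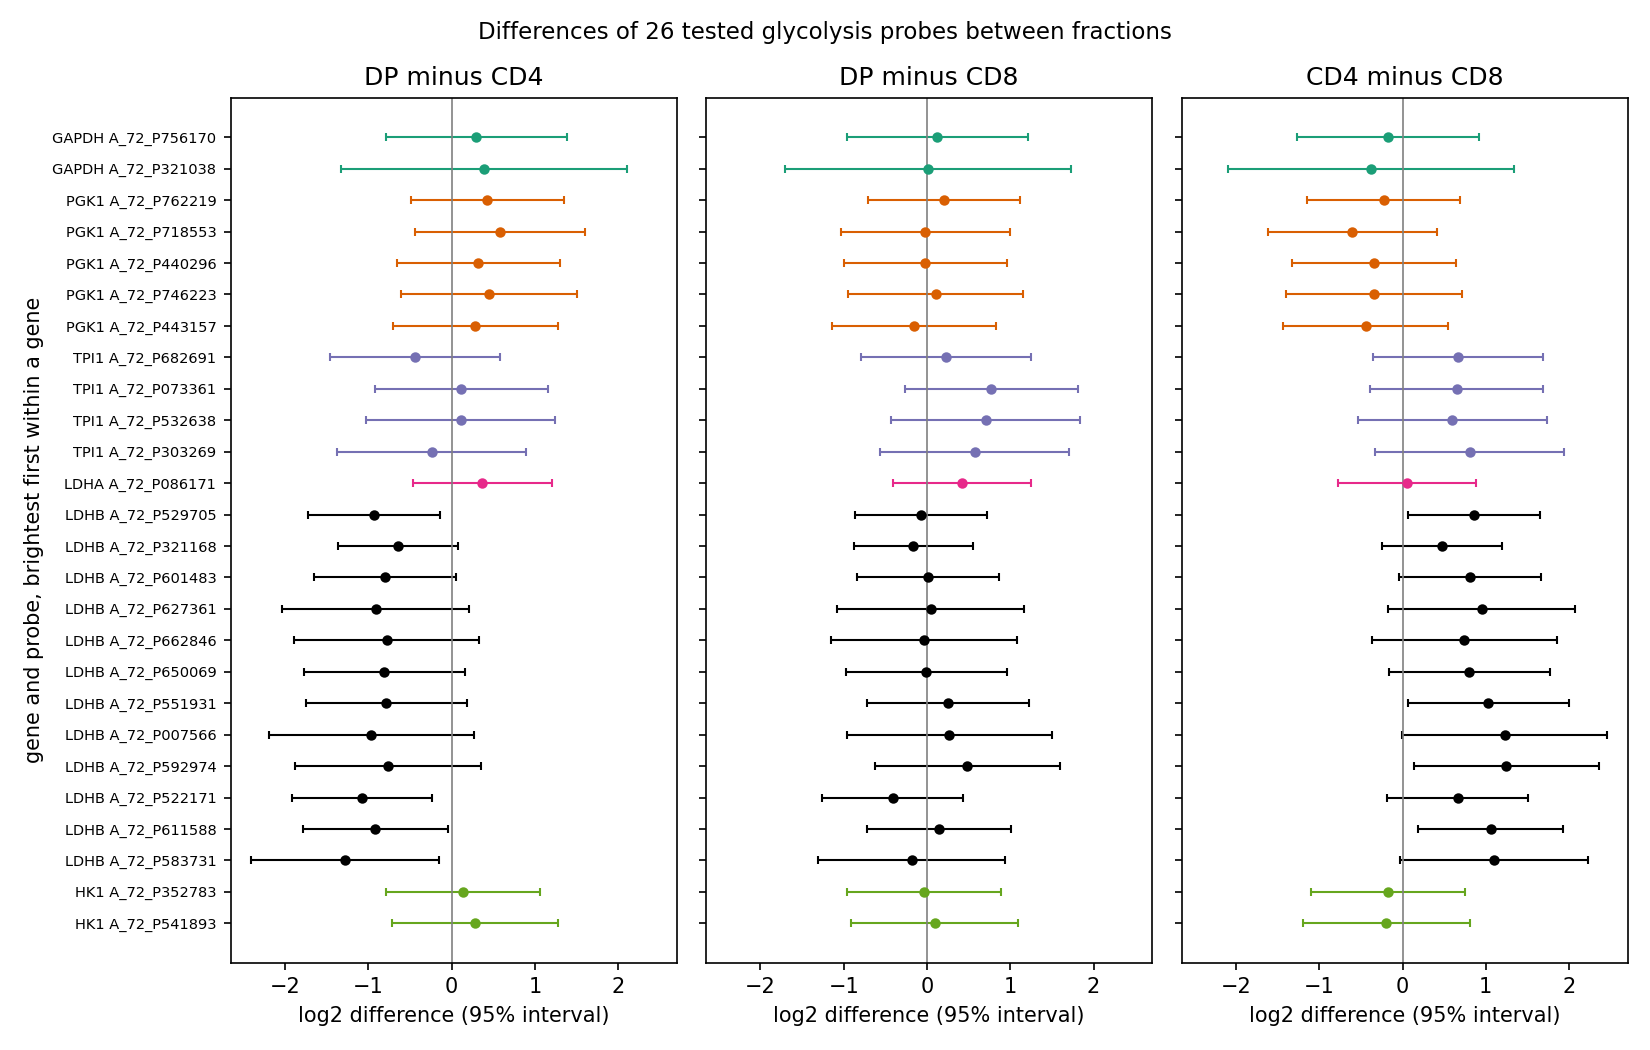
Log2 differences with 95% intervals (not adjusted for the number of probes) of the 26 tested glycolysis probes for DP minus CD4, DP minus CD8 and CD4 minus CD8, coloured by gene. The 12 LDHB probes lie left of 0 in the first panel and right of 0 in the third, and the intervals of 4 of them leave out 0 in each; all other genes' intervals include 0.

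By the mean of the leading probe, DP was highest for GAPDH, PGK1 and LDHA, CD4 was highest for LDHB and TPI1, and CD8 was highest for HK1. No step in any of these orders passed the test. For the leading probes of GAPDH, PGK1 and LDHA, array 3 was the lowest of its fraction in DP, CD4 and CD8 alike. CD8 array 3 was the lowest of all 9 arrays for the leading probes of GAPDH, PGK1, LDHA and HK1. The leading LDHB probe did not follow this, as it was highest on array 3 in DP and in CD4. This depended on the probe. Averaged over its 12 probes, LDHB was lowest on array 3 in DP, on array 2 in CD4 and on array 1 in CD8. What the replicate numbers of the arrays mark is not stated in the labels.

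The mean profile of the 6 leading probes, each centred on its own mean, was flat over most arrays, between -0.07 and 0.24, and fell to -0.58 on CD8 array 3. LDHA was closest to it, at a root mean square difference of 0.24 over the 9 arrays, and TPI1 farthest, at 0.57. HK1 was at 0.28, PGK1 at 0.33, GAPDH at 0.52 and LDHB at 0.55. Each member is itself part of this mean, which draws its distance down, so members and outside genes are not measured on equal terms. Even so, TPI1 at 0.572 and LDHB at 0.551 lay slightly beyond the median of 0.546 for named genes outside the lists. Not all 6 members were thus close to the mean profile. Among 1456 named genes outside the lists, the 5 nearest to it were CRK at 0.133, SEC62 at 0.137, PPP4R3B at 0.140, LRP10 at 0.140 and PTCD3 at 0.142, against a median of 0.546. CRK is an adaptor protein of signalling complexes, SEC62 belongs to the protein translocation machinery of the endoplasmic reticulum, PPP4R3B is a regulatory subunit of a phosphatase, LRP10 is a receptor of the LDL receptor family and PTCD3 is a mitochondrial ribosome protein. SEC62 read 4.38, 3.87 and 4.08 on DP arrays, 4.10, 4.05 and 4.003 on CD4 arrays and 4.55, 4.15 and 3.50 on CD8 arrays. The 5 genes were picked by likeness to this profile on the same 9 arrays. The low SEC62 value on CD8 array 3 follows from that choice and is no separate result.

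Genes around the pathway were read through their leading probes. By limma, none of the tested genes in the lists below was called in any comparison, and those with an unadjusted p under 0.05 were DLD in DP minus CD8, HIF1A in DP minus CD8 and CD4 minus CD8, and DDIT4 in DP minus CD4 and DP minus CD8. Of 23 other glycolytic enzymes, 8 had a named probe and 3 were testable, while HK2 and LDHC were above background on no array. GPI, the isomerase after hexokinase, had the smallest p. It read 2.96, 2.96 and 2.31 on DP arrays and 2.50, 2.47 and 1.89 on CD4 arrays, a difference of 0.46 ± 0.40 (SE). The other tested GPI probes differed less, with means of 1.34 and 0.50 in DP against 1.15 and 0.52 in CD4. Of 10 glucose and lactate transporters and their partners, 4 were named and 2 testable. SLC16A1, a lactate and pyruvate carrier, read 0.01, -1.75 and 0.91 on DP arrays and 1.56, 0.25 and 0.95 on CD8 arrays, a difference of -1.20 ± 0.63. The values overlapped, and the difference was -2.65 within slide 2 and -0.04 within slide 3.

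The pentose phosphate branch, which makes NADPH and ribose from glucose phosphate, had 3 testable genes of 7. TKT, its transketolase, read -0.18, 1.35 and 0.36 on DP arrays and -0.28, 0.05 and -0.61 on CD4 arrays, a difference of 0.79 ± 0.48 (SE). Of 13 genes for pyruvate entry into mitochondria, 4 were testable and PDK4 was above background on no array. DLD, a subunit of pyruvate dehydrogenase, had a leading probe at 3.98, -2.45 and 4.19 on DP arrays and 4.80, 5.41 and 3.92 on CD8 arrays. Its difference of -2.81 ± 1.29 rests on DP array 2 and was -0.63 without that array. The other tested DLD probes had no such drop on DP array 2. The next brightest of them read 3.35, 3.27 and 2.87 on DP arrays and 3.75, 4.51 and 3.02 on CD8 arrays. Of 13 citric acid cycle genes, 6 were testable, and IDH3B, an isocitrate dehydrogenase subunit, differed by -0.88 ± 0.49 in DP minus CD8. A second tested IDH3B probe differed less, with means of 0.64 in DP and 0.89 in CD8. Of 6 gluconeogenesis genes, PCK2, a mitochondrial phosphoenolpyruvate carboxykinase, was the testable one and differed by -0.90 ± 0.56 in DP minus CD4.

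HIF1A, the oxygen-regulated transcription factor subunit known to drive glycolytic genes, was 1 of 6 testable regulators out of 17. Its leading probe read 5.61, 5.63 and 5.69 on DP arrays, 5.81, 5.74 and 5.49 on CD4 arrays and 5.10, 4.92 and 4.36 on CD8 arrays. All DP and all CD4 arrays lay above all CD8 arrays. The differences were 0.85 ± 0.32 (SE, adjusted p = 0.602 by limma) for DP minus CD8, 0.89 ± 0.32 (adjusted p = 0.739) for CD4 minus CD8 and -0.04 ± 0.32 for DP minus CD4. Within slides 2 and 3 the DP minus CD8 difference was 0.62 and 1.33.

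DDIT4, a stress-induced inhibitor of mTOR signalling, was 1 of 2 testable genes of 11 in the hypoxia response, and VEGFA was above background on no array. It read 0.03, 1.75 and 0.83 on DP arrays, 3.20, 2.10 and 2.92 on CD4 arrays and 2.16, 4.24 and 3.30 on CD8 arrays. All DP arrays lay below all CD4 and all CD8 arrays. The differences were -1.87 ± 0.58 (SE, adjusted p = 0.376 by limma) for DP minus CD4 and -2.36 ± 0.58 (adjusted p = 0.180) for DP minus CD8, and these share the DP arrays. With no filter on detection the adjusted p for DP minus CD8 was 0.0451, past the threshold. By limma it was 0.1095 with the replicate block and 0.6442 with the slide block. Within slides 2 and 3 the DP minus CD4 difference was -0.35 and -2.22, and the DP minus CD8 difference was -1.45 and -2.46. Of 7 T cell activation genes, CD69, an early activation antigen, was the testable one, while IL2 and IL2RA were above background on no array. CD69 read -0.02, 0.71 and -3.41 on DP arrays and 1.09, 1.73 and -0.60 on CD8 arrays, a difference of -1.65 ± 1.02.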

How the data were processed

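RNA was taken from sorted T cells of sows with Trizol and RNeasy MinElute columns. Per the labels' protocols, 25 ng were amplified (Ovation PicoSL WTA System V2) and labelled with the dye Cy3. The deposited scanner files hold intensity values made with Agilent Feature Extraction 11.0.1.1 per the file headers: the processed signal is background-subtracted and spatially detrended, and not scaled between arrays. A deposited table of log2 values, made by a program not given in the sources used here, served as an alternative. Its CD8 columns 1, 2 and 3 followed scanner arrays 3, 1 and 2 (r of at least 0.9991), and its other columns followed their own arrays. Scale and direction match log2 of the scanner signal with no centring of genes seen.

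Control probes and outlier spots were left out (1 to 12 spots per array, none saturated), spots of a probe were averaged, and log2 values were taken relative to the array's 75th percentile. limma 3.58.1 in R 4.3.3 was fitted to all 9 arrays with a variance trend and no block, over probes with at least 2 values per fraction. The precision is limited by 3 arrays per fraction. Of all probes, 6730 were named, for 3052 genes. The annotation used is RefSeq's for Sscrofa11.1, and the files name no build, so no coordinates are given. The scripts were tested on simulated data.

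The members, the gene lists and the tests were chosen with earlier results of these data known. Named are all member probes, from each other list the called genes or else the gene with the smallest p in any comparison, and the 5 genes nearest to the members' profile. Red cell and gamma delta T cell marker lists had no named probe. Alternatives were normexp background correction (offset 50, on the median signal, since the mean signal was not used here), quantile scaling, a percentile over probes detected on all arrays, the deposited table, detection filters, no variance trend, slide and replicate blocks, values within slides, leaving out each array and, for LDHA less LDHB, the mean of the 12 LDHB probes. The last one and the refits for genes outside the members were chosen after seeing the data. Same-numbered arrays deviated together in most pairs but not in every one (correlations from -0.07 to 0.65, over 0.1 in 7 of 9). With the CD8 numbers of the deposited table, 3 of 9 were over 0.1. The labels do not say what the numbers mark, so the main fit took no pairs and the replicate block was an alternative.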

Additional observations from a re-analysis of the deposited data

How the results depend on the processing

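No glycolysis probe was called in any comparison under the main setting or 19 alternative fits. All 12 LDHB probes kept their sign for DP minus CD4 and for CD4 minus CD8 in each of these fits, but not within slide 2 alone. The number of probes called over the whole array moved more. For DP minus CD4 it was 47, with 1 under normexp background, 109 with no filter on detection, 12 with only probes detected on all arrays, 144 with the replicate block, 30 with the replicate block numbered as in the deposited table, 2 with the slide block, and 2 to 55 when leaving out 1 array. For DP minus CD8 it was 50, with 7, 87, 5, 83, 21 and 2 under the same settings, 22 with the percentile over probes detected on all arrays, 24 with the deposited values, and 1 to 51 when leaving out 1 array. For CD4 minus CD8 it was 70, with 6 under normexp background, 12 with only probes detected on all arrays, 110 with the replicate block, 38 with the slide block, and 31 to 81 when leaving out 1 array. The cause was not tested, apart from the fewer probes or arrays that a filter or omission leaves.

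LDHA less LDHB for DP minus CD4, at 1.31, was 0.62 within slide 3 and 1.09 to 1.69 when leaving out 1 array. With the mean of the 12 LDHB probes, chosen after seeing the data, it was 1.26 over all arrays and 0.26 within slide 2, and CD4 and CD8 arrays then overlapped. Several differences of leading probes that were smaller than their SE turned sign, and the cause was not tested. For DP minus CD4, HK1 was -0.0925 with the slide block and -0.0744 to 0.275 leaving out 1 array. For DP minus CD8, LDHB was 0.16 under normexp background, 0.20 with quantile scaling, 0.20 with the deposited values and -0.36 to 0.18 leaving out 1 array. HK1 was 0.17, 0.0074 and 0.0054 under the same settings, 0.0167 with the percentile over detected probes, and -0.43 to 0.21 leaving out 1 array. Leaving out 1 array gave -0.28 to 0.65 for GAPDH, -0.23 to 0.55 for PGK1 and -0.29 to 0.58 for TPI1. For CD4 minus CD8, GAPDH was 0.10 under normexp background, 0.13 with the slide block and -0.58 to 0.35 leaving out 1 array. PGK1 was 0.0558 under normexp background, 0.0116 with the slide block and -0.66 to 0.12 leaving out 1 array. HK1 was 0.0683 under normexp background and -0.57 to 0.0726 leaving out 1 array, and LDHA was -0.20 to 0.37. The replicate block changed no call of a member. The balance of ALDOA and ALDOC was not run, as ALDOA had no probe.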
